A study of Mus musculus with 8 samples.

Results

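The 7 genes described here are Elane, Mpo, Prtn3, Ctsg, Ctsc, Serpinb1a and Srgn. They encode enzymes and cargo of the azurophil granule and, for Serpinb1a, a cytosolic inhibitor of its proteases. The genes were taken by symbol from the 15576 rows of a bulk RNA-seq count table of leukemic stem cells (LSCs). They were chosen with their difference between imatinib-treated and untreated mice already known, so that difference is described here without a test. All 7 passed the filter on low counts, which kept 11937 genes. LSCs were sorted from the bone marrow of C57BL/6 mice with the CML genotype, of which one group was untreated (CML, 4 libraries) and the other was given imatinib, an inhibitor of the BCR-ABL tyrosine kinase, at 400 mg/kg by gavage on alternate days for 30 days (CML-TKI, 4 libraries). Both groups carried the double transgene BCR-ABL×SCL-tTA, in which the SCL promoter drives the tetracycline transactivator in stem and progenitor cells and BCR-ABL comes on when tetracycline is withdrawn. The labels give neither the age of the mice nor whether the libraries of a group came from separate animals, so the spread between libraries may be in part technical. The dose is that of the labels. The methods of the paper give it beside a lower one, and the legend for this RNA-seq comparison names the lower one. The labels give a Lin-Sca1+cKit+Flt3-CD150-CD48+ gate for all 8 libraries, while the paper defines LSCs as CD48- and CD150+. The CML libraries are called CML 1, 2, 3 and 5 after the table's columns, although the labels number them up to 4.

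Azurophil granules form at the promyelocyte stage and hold the earliest granule proteins of the neutrophil lineage. Their serine proteases, neutrophil elastase, proteinase 3 and cathepsin G, are made as inactive precursors, are activated by cathepsin C, which trims their amino terminus, and are packed onto the sulfated sugar chains of the proteoglycan serglycin. Myeloperoxidase, a heme enzyme, shares the granule, and the cytosolic serpin encoded by Serpinb1a inhibits proteases that escape from it.

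Library totals ran from 4939644 to 8620101 counts for CML and from 1041552 to 5104268 counts for CML-TKI, CML-TKI 3 being the shallowest. A gene at 3 counts, taken as the floor, corresponded to 0.409 to 0.580 CPM (read counts scaled to library size with TMM factors) for CML and to 0.570 to 3.29 CPM for CML-TKI. Such a floor accounts for counting error alone. The ribosomal RNA gene Rn45s took 20.2% to 38.3% of the counts in CML and 9.23% to 22.5% in CML-TKI. CML 1, 2 and 3 resembled each other more (r across genes of 0.974 to 0.982 in log2 CPM) than they resembled CML 5 (0.899 to 0.914). CML-TKI 1 lay between the other CML-TKI libraries and the CML libraries on the first principal component. Its r was 0.808 to 0.817 with CML 1, 2 and 3 and 0.753 with CML 5. With CML-TKI 2, 3 and 4 it was 0.711 to 0.770. Markers of the labelled stem cell summed to 1114 to 1459 CPM in CML and to 48.0 to 427 CPM in CML-TKI, where Procr, Mecom and Fgd5 had 0 counts in CML-TKI 2 and 4, and 3 of 9 tested markers were called lower in CML-TKI by edgeR and 0 higher.

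The serine proteases and myeloperoxidase were low in untreated LSCs, with Elane and Ctsg nearest the floor, and abundant in every CML-TKI library. Mean CPM (± SD, n = 4 each) in CML and CML-TKI was 3.25 ± 2.74 and 1041 ± 551 for Elane, 12.6 ± 10.4 and 3121 ± 1754 for Mpo, and 1.25 ± 0.865 and 321 ± 160 for Ctsg. Prtn3, the best detected of these 4 genes for its length in CML, had 32.0 ± 11.2 and 868 ± 419 CPM. Ctsc was higher in CML-TKI by a smaller factor, and the groups overlapped for Serpinb1a and Srgn. For 5 of the 7 genes all CML-TKI values lay above all CML values, and for 0 they lay below. Among all tested genes, 10.3% lay wholly higher in this way and 13.1% wholly lower, shares that stand here as background, since the 7 genes were picked from this contrast. In bulk samples, fewer cells of a type and less RNA per cell cannot be told apart.

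**Figure D1:**
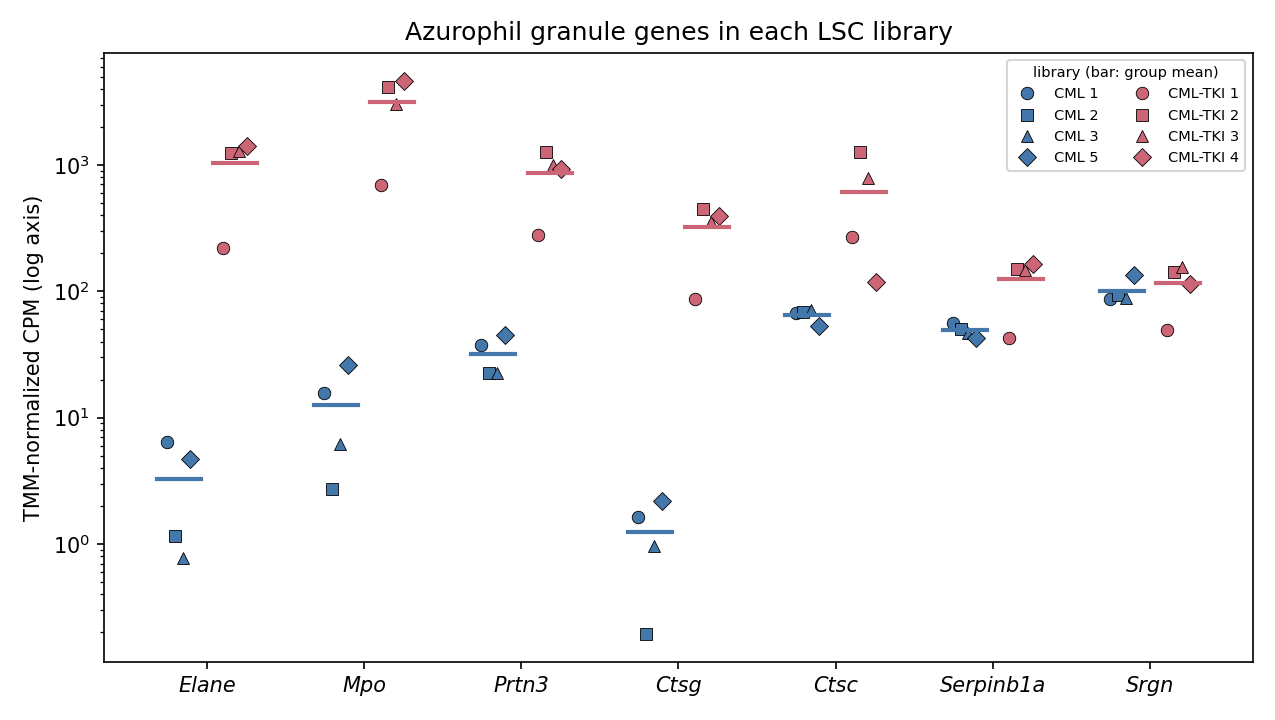
TMM-normalized CPM (log axis) of the 7 azurophil granule genes in 4 CML (blue) and 4 CML-TKI (red) libraries, 1 point per library and a bar at each group mean. Elane, Mpo, Prtn3, Ctsg and Ctsc do not overlap between the groups, CML-TKI 1 is the lowest CML-TKI library for every gene but Ctsc, and CML-TKI 4 is the lowest for Ctsc.

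Neutrophil elastase (Elane, ENSMUSG00000020125) lies on the plus strand at chr10:79886247-79888215 in GRCm38 and has 5 exons, with a coding sequence of 795 bases. Proteinase 3 (Prtn3, ENSMUSG00000057729) lies just upstream on the same strand at chr10:79874476-79883174. Cathepsin G (Ctsg, ENSMUSG00000040314) is on the minus strand at chr14:56099881-56102574, and Mpo (ENSMUSG00000009350) on the plus strand at chr11:87793581-87804413. Because these 4 genes were high in the same libraries, the 250 bases before each transcription start are shown, from RefSeq's annotation of GRCm38.p6, in the direction of the gene. Capitals mark matches, on either strand, to short words known as the cores of factor binding sequences. The word searched for PU.1 was GAGGAA. For MYB, a factor of progenitor cells, the words were CAACNG and the closely similar alternative TAACNG. The word for RUNX proteins was TGTGGT, and the word for a TATA box, where the basal machinery is placed, was TATAAA. The windows are, in the order printed, chr10:79886062-79886311 (plus strand), chr10:79879417-79879666 (plus), chr11:87793534-87793783 (plus) and chr14:56102575-56102824 (minus).
Elane: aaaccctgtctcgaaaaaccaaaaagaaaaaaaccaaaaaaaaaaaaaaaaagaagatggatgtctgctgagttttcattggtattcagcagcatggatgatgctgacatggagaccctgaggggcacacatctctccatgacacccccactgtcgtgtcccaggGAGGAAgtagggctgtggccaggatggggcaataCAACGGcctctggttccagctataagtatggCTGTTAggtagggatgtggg
Prtn3: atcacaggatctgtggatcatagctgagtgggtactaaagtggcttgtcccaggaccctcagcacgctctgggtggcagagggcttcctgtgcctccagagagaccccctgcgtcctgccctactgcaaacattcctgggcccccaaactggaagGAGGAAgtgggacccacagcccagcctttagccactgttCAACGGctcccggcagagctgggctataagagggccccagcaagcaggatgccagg
Mpo: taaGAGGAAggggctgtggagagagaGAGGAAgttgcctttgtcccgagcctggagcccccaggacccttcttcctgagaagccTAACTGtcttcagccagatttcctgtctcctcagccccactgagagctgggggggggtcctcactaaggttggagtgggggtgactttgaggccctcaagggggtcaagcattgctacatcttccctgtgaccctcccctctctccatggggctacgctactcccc
Ctsg: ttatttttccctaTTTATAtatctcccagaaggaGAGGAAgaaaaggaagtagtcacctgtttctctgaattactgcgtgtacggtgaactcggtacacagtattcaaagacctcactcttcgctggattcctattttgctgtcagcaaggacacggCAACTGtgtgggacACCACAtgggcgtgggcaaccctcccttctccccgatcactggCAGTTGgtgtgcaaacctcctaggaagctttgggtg

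All 4 windows held GAGGAA, the core recognised by PU.1 (encoded by Spi1), together with a MYB sequence. In Elane, GAGGAA began 85 bases before the start and CAACGG 51 bases before it, and in Prtn3 the same words began 95 and 56 bases before the start. Mpo had GAGGAA at 247 and 224 bases and TAACTG at 166 bases before its start, and Ctsg had GAGGAA at 216 bases, with MYB sequences at 93 and 36 bases and a RUNX sequence at 79 bases before its start. The TATA word of Ctsg was on the minus strand at 237 bases before the start. Only exact matches were marked, so the similar TATAAG in the Elane and Prtn3 windows was not. Among 32851 promoter windows of 300 bases in the table, 28.3% held GAGGAA, 49.7% a MYB sequence and 13.8% both, and 16.8% held the RUNX and 13.6% the TATA sequence. The C/EBP sequence TTGCNNAA (10.8% of all windows) and the GFI1 sequence AAATCA (14%) were not found in the windows of the 6 members with an entry, which says only that these letters are not in them. The Ctsc window held GAGGAA on the minus strand and no MYB sequence, and the pair of windows of Srgn held MYB sequences without GAGGAA. Serpinb1a had no entry. RefSeq and GENCODE place the start of Elane, Mpo and Prtn3 at different bases, so distances hold for the RefSeq start.

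Elane had 6.40, 1.16, 0.773 and 4.67 CPM in CML 1, 2, 3 and 5, from 47, 6, 4 and 34 counts. It had 221, 1242, 1292 and 1408 CPM in CML-TKI 1 to 4, from 1161, 4009, 1179 and 5414 counts. The lowest CML-TKI library was thus 34.5 times the highest CML library, and 3 of the 4 CML-TKI libraries lay close together while CML-TKI 1 stood below them. The fitted log2 fold change was 8.26 (SE 0.88), the 10th largest of 11937, a rank given as description since Elane was picked from this contrast.

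Ctsg followed the same order of groups at a lower level. Its counts were 12, 1, 5 and 16 in CML 1, 2, 3 and 5, of which the count in CML 2 was under the floor. In CML-TKI 1 to 4 it had 456, 1435, 323 and 1528 counts, or 86.6, 445, 354 and 398 CPM. The groups did not overlap, CML-TKI 1 again being the lowest of its group, and the log2 fold change was 7.91 (SE 0.72), a difference measured against CML values that rest on few counts.

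Prtn3 was already measurable in untreated LSCs. It had 37.9, 22.6, 22.6 and 45.0 CPM in CML 1, 2, 3 and 5, with 117 counts or more in each. In CML-TKI 1 to 4 it had 279, 1269, 991 and 932 CPM. The lowest CML-TKI library exceeded the highest CML library 6.21 times, and the log2 fold change was 4.76 (SE 0.50). The ratio of Prtn3 to Elane counts, in which transcript length cancels between libraries, was between 5.91 and 29.3 in CML and between 0.662 and 1.27 in CML-TKI, so these neighbouring genes did not change by the same factor.

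Mpo, which makes hypochlorous acid from hydrogen peroxide and chloride, was the most abundant member by CPM in CML-TKI. It had 15.7, 2.70, 6.18 and 25.8 CPM in CML 1, 2, 3 and 5 and 695, 4138, 3014 and 4638 CPM in CML-TKI 1 to 4. The groups did not overlap, and the log2 fold change was 7.94 (SE 0.91), or 8.54 without CML 5. Mpo counts were 2.33 to 3.33 times Elane counts in the 4 CML-TKI libraries, a narrower range than the 2.33 to 8 of the CML libraries, where the Elane count fell to 4.

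Ctsc, on the plus strand at chr7:88278085-88310888 (ENSMUSG00000030560, 7 exons), encodes cathepsin C, the activator of these proteases. It was steady in CML, at 67.5, 68.7, 71.5 and 52.7 CPM in CML 1, 2, 3 and 5. In CML-TKI 1 to 4 it had 268, 1267, 781 and 119 CPM. No CML-TKI value reached down to the CML values, but the order within the group differed from that of the proteases, since CML-TKI 4, with the most Elane and Mpo, had the least Ctsc. The highest CML-TKI library was 10.6 times the lowest for Ctsc, against 6.39 times for Elane, and the log2 fold change was 3.22 (SE 0.64), or 2.56 without CML-TKI 2.

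Serpinb1a, on the minus strand at chr13:32842092-32851185 (ENSMUSG00000044734, 7 exons), encodes an inhibitor of elastase, proteinase 3 and cathepsin G. It had 56.4, 50.6, 46.8 and 42.9 CPM in CML 1, 2, 3 and 5 and 42.9, 149, 147 and 164 CPM in CML-TKI 1 to 4. CML-TKI 1 lay among the CML libraries and the other CML-TKI libraries above them, so the groups overlapped through this library, and without it 6 of the 7 genes were wholly higher. The log2 fold change was 1.35 (SE 0.37).

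Srgn, on the minus strand at chr10:62493833-62527451 (ENSMUSG00000020077, 4 exons), encodes serglycin, the proteoglycan core of the granule matrix. It had 86.6, 94.2, 88.5 and 134 CPM in CML 1, 2, 3 and 5 and 49.6, 143, 155 and 114 CPM in CML-TKI 1 to 4. The groups overlapped from both sides, CML 5 being above CML-TKI 4 and CML-TKI 1 below every CML library. The log2 fold change was 0.19 with an SE of 0.34, and it was 0.44 without CML-TKI 1. Some of its deposited values were not whole numbers, unlike those of the other 6 genes.

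The 7 genes together took 0.0249% to 0.0273% of the counts of a CML library and 0.169% to 0.926% of those of a CML-TKI library. Their median log2 fold change was 4.76, against -0.00026 for all tested genes, a gap that follows in part from how the 7 were chosen. Per kb of annotated exon, which puts genes on one scale, mean levels in CML ran from Srgn (45.9 ± 10.1 CPM per kb, SD, n = 4) through Serpinb1a (21.3 ± 2.50), Prtn3 (18.5 ± 6.49), Ctsc (11.2 ± 1.46), Mpo (3.68 ± 3.03) and Elane (3.30 ± 2.78) to Ctsg (1.21 ± 0.838). In CML-TKI, Srgn was last at 52.5 ± 21.4 CPM per kb. The order there was led by Elane (1058 ± 560), Mpo (912 ± 512), Prtn3 (501 ± 242) and Ctsg (310 ± 155), followed by Ctsc (105 ± 89.9) and Serpinb1a (54.5 ± 24.2). In each of the 4 CML-TKI libraries the level of Elane was above Mpo, Mpo above Prtn3, Prtn3 above Ctsg and Ctsg above Ctsc. Serpinb1a and Srgn did not keep one order, Serpinb1a being the higher in 1 of 4 CML-TKI libraries, and Ctsc was above Serpinb1a in 3 of 4. In CML, Mpo was above Elane in 2 of 4 libraries, and Serpinb1a above Prtn3 and Elane above Ctsg in 3 of 4.

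The balance between the proteases and their partners shifted as well. The summed CPM of Elane, Prtn3 and Ctsg divided by that of Serpinb1a was 0.814, 0.473, 0.521 and 1.21 in CML 1, 2, 3 and 5, and 13.7, 19.9, 18 and 16.7 in CML-TKI 1 to 4. The CML-TKI libraries lay close together in this ratio, CML-TKI 1 included. Divided by Ctsc, the sum was 0.341 to 0.984 in CML and 2.19, 2.33, 3.37 and 23.0 in CML-TKI 1 to 4, so that CML-TKI 4 stood apart. Divided by Srgn, it was 0.254 to 0.530 in CML and 11.8 to 23.9 in CML-TKI. These ratios are not per length, and are compared between libraries only.

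**Figure D2:**
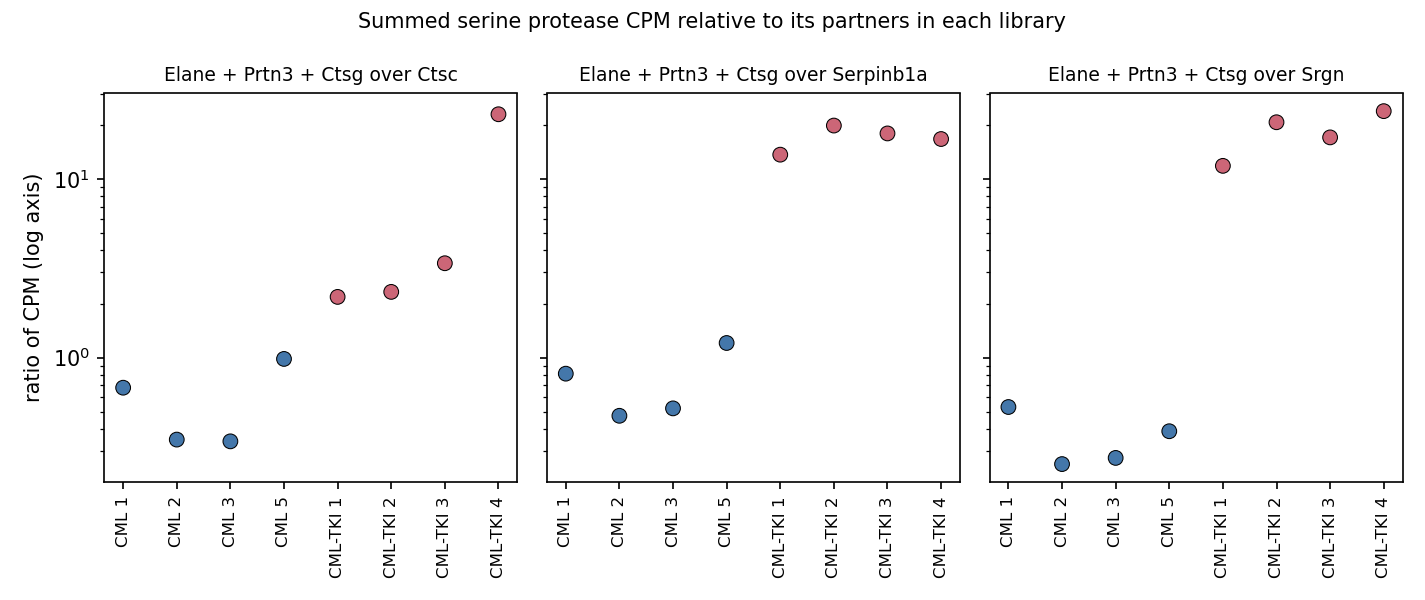
Ratio of the summed CPM of Elane, Prtn3 and Ctsg to the CPM of Ctsc, Serpinb1a or Srgn (log axis) in each of 4 CML (blue) and 4 CML-TKI (red) libraries. The ratio to Serpinb1a is between 13.7 and 19.9 in all CML-TKI libraries, whereas the ratio to Ctsc is 23.0 in CML-TKI 4 and at most 3.37 in the other CML-TKI libraries.

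Over the 8 libraries, log2 CPM of Elane ran with that of Mpo, Prtn3 and Ctsg (Pearson's r of 0.992 to 0.994), less closely with Ctsc (0.81) and Serpinb1a (0.83) and little with Srgn (0.28). These are descriptions, since the points share 2 groups that differ in depth and in most of these genes. Among 9307 other genes whose mean log2 CPM was 3 or more, the 8 most like Elane were Rab44, Ctsh, Chdh, Gm21188, Cd53, Irf8, Neu1 and Dtx4 (r of 0.983 to 0.986). Rab44 encodes a large Rab GTPase, Ctsh a lysosomal cysteine protease and Neu1 the lysosomal sialidase. The list is mixed, since Irf8 is a transcription factor. Chdh had the largest log2 fold change of the 8 (7.94). Rab44 had at most 2.75 CPM in a CML library and at least 70.7 CPM in a CML-TKI library.

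The other proteins of the granule, and of the lysosome it resembles, were then examined in the fit across all genes (edgeR's quasi-likelihood test, adjusted by Benjamini-Hochberg, threshold 0.05), in which 10.2% of genes were called, 6.29% as higher in CML-TKI and 3.93% as lower. Of 19 tested granule content genes, 10 rose and 0 fell, with a median log2 fold change of 1.02. Prss57, which encodes the neutrophil serine protease NSP4, rose most. It had 4.09, 5.79, 6.76 and 7.42 CPM in CML 1, 2, 3 and 5 and 23.0, 108, 103 and 110 CPM in CML-TKI 1 to 4, without overlap (log2 fold change 3.83, SE 0.50, edgeR adjusted p = 0.0018). The lysozyme genes Lyz1 (3.35, SE 0.48, edgeR adjusted p = 0.0028) and Lyz2 (2.92, SE 0.42, edgeR adjusted p = 0.0027) also rose, although reads of these near-identical copies may have been split between them. The lysosomal protease gene Ctsz rose by 2.20 (SE 0.33, edgeR adjusted p = 0.0033) and Psap, the precursor of the saposins, by 2.07 (SE 0.29, edgeR adjusted p = 0.0026) on the log2 scale. Without CML 1, 2 or 3, 6 granule content genes were called in place of 10.

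**Figure D3:**
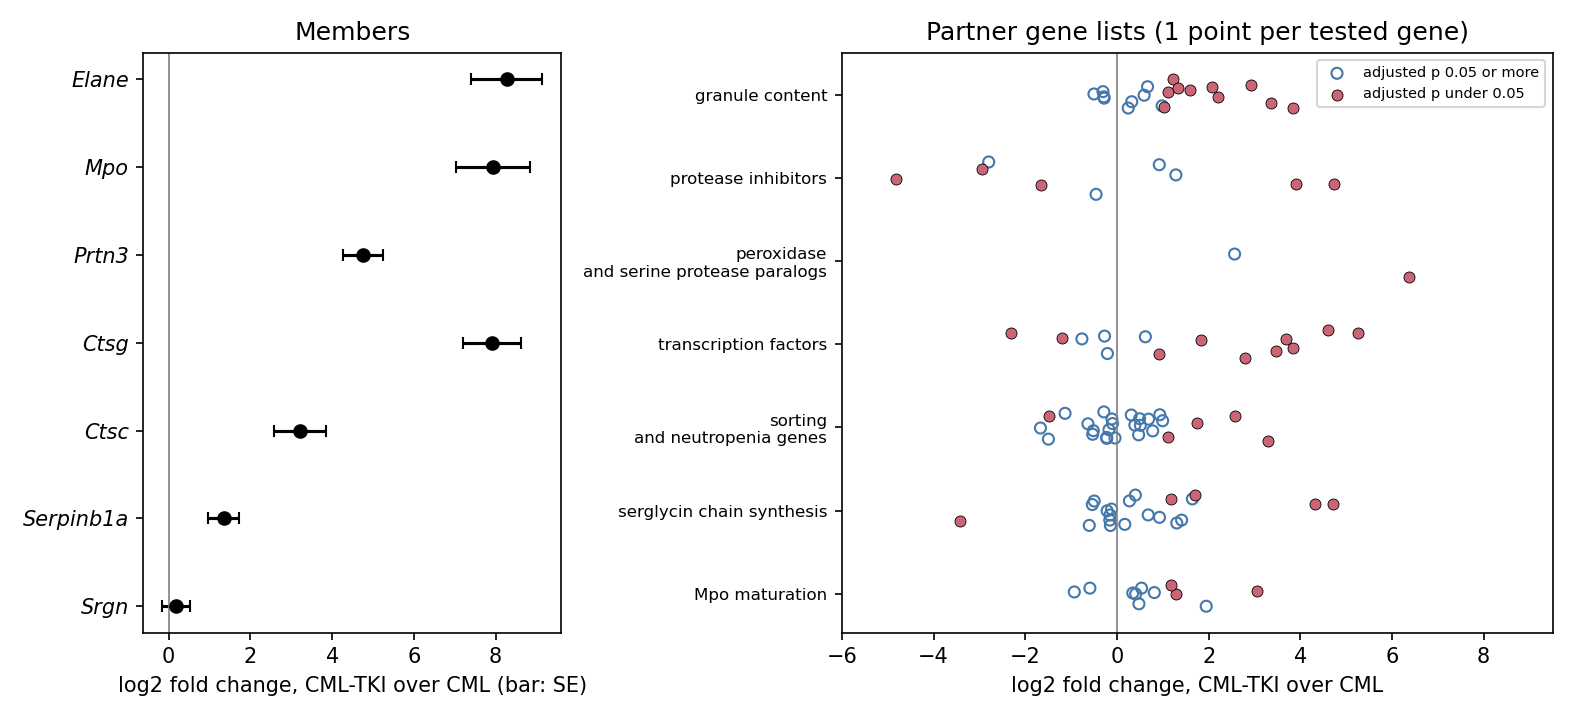
Left, log2 fold change of CML-TKI over CML for the 7 azurophil granule genes with the SE as bars. Right, the same quantity for each tested gene of 7 partner lists, filled where the edgeR adjusted p was under 0.05. The members run from 0.19 (Srgn) to 8.26 (Elane), and 10 of 19 granule content genes are filled to the right of 0 and none to the left.

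These calls rested on CML 1, 2 and 3 counting as separate libraries. When their counts were summed to 1 library, 122 genes were called in place of 1220, and of 40 called list, gate and neighbouring genes tried in that fit, Cd48, Irf8, Kit, Hdc and Palm were still called. With fewer samples in that fit, the log2 fold changes of these 40 genes kept their sign and moved by a median of 0.11 and by at most 0.72 (Cebpe).

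Other inhibitors of granule proteases went in both directions. Of 9 tested, 2 rose and 3 fell. Slpi, a secreted inhibitor of elastase and cathepsin G, had 1.84 ± 0.772 CPM in CML and 28.4 ± 12.1 CPM in CML-TKI (SD, n = 4 each), and Cst7, which encodes the cathepsin C inhibitor cystatin F, had 1.13 ± 0.272 and 30.4 ± 21.9 CPM. Neither gene overlapped between the groups (log2 fold changes of 3.91 and 4.73, edgeR adjusted p = 0.0026 and 0.0032). Serpinb6a, a cytosolic relative of Serpinb1a known to inhibit cathepsin G, fell by 1.65 (SE 0.35, edgeR adjusted p = 0.017). Serpina3g had 570 to 722 CPM in CML and 168, 17.7, 132 and 13 CPM in CML-TKI 1 to 4, and fell by 2.95 (SE 0.74, edgeR adjusted p = 0.034). Its close copy Serpina3f fell by 4.82 (SE 1.01, edgeR adjusted p = 0.016), with 11, 0, 0 and 0 counts in CML-TKI 1 to 4, and reads of this pair may have been split. Without CML-TKI 1, which leaves only counts of 0 in the CML-TKI group, the fitted value of Serpina3f was -9.58, whose size depends on the prior count. All 3 falls missed the threshold without CML 1, 2 or 3, so that 2 inhibitors were called, and that of Serpina3g also without CML 5, CML-TKI 2 or CML-TKI 3, while without CML-TKI 1 its value was -3.65. Serpinb1b and Serpinb1c were not analysed here.

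Relatives of Mpo and of the serine proteases that mark other granulocytes varied between the CML-TKI libraries. Of 18 listed paralogs 6 were in the table and 2 could be tested. Epx, the eosinophil peroxidase, had 36, 4, 59 and 70 counts in CML 1, 2, 3 and 5 and 1777, 2302, 0 and 4417 counts in CML-TKI 1 to 4. It passed the threshold (log2 fold change 6.36, SE 1.42, edgeR adjusted p = 0.021) although CML-TKI 3, where Mpo stood at 3014 CPM, was below the CML libraries, and it missed the threshold without any one of CML 1, 2, 3 and 5. Its log2 fold change was 5.71 without CML-TKI 4. The protease gene Mcpt8, a mast cell and basophil marker at -17.4 kb from Ctsg between midpoints, had 0 counts in all CML libraries. It had 102, 189, 1 and 537 counts in CML-TKI 1 to 4. Prss34, also such a marker, had 0, 1, 4 and 0 counts in CML 1, 2, 3 and 5. In CML-TKI 1 to 4 Prss34 had 410, 199, 0 and 3230 counts. Cfd, which encodes the serine protease complement factor D and is a neighbour of Elane, had 16 counts or fewer in every library. Without CML 3 or 5, 2 of these relatives were called, and 3 without CML-TKI 3. Lpo and Gzmb were not analysed here.

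Transcription factors of myeloid and progenitor cells were among the genes that rose. Of 14 tested, 8 rose and 2 fell. Irf8 rose most, from 6.37 ± 2.6 to 248 ± 126 CPM (SD, n = 4 each, log2 fold change 5.26, edgeR adjusted p = 0.00087). It is also counted among the monocyte markers below. Cebpe, a factor of late granule genes, had 1, 1, 1 and 21 counts in CML 1, 2, 3 and 5 and 62, 64, 16 and 153 counts in CML-TKI 1 to 4 (4.61, SE 0.98, edgeR adjusted p = 0.016). Cebpa, which is needed for granulocyte commitment, rose from 8.05 ± 3.26 to 115 ± 66.5 CPM (3.83, SE 0.54, edgeR adjusted p = 0.0026), and its relative Cebpd by 3.70 (SE 0.56, edgeR adjusted p = 0.0037).

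Gfi1, a repressor that acts on Elane and is mutated in some neutropenias, also rose, from 4.73 ± 2.88 to 53.4 ± 26.5 CPM (SD, n = 4 each, log2 fold change 3.47, SE 0.55, edgeR adjusted p = 0.0044). Spi1, which encodes PU.1, rose by 1.83 (SE 0.38, edgeR adjusted p = 0.016). Gata2, a stem and progenitor factor, fell by 2.32 (SE 0.36, edgeR adjusted p = 0.0042) and Etv6 by 1.20 (SE 0.19, edgeR adjusted p = 0.0050). Myb had 355 ± 63.7 CPM in CML and 307 ± 136 CPM in CML-TKI (-0.21, SE 0.32, edgeR adjusted p = 0.74), and Runx1 had 158 ± 20.2 and 130 ± 53.7 CPM (-0.27, SE 0.30, edgeR adjusted p = 0.62). Cebpe and Spi1 missed the threshold without CML 1, 2 or 3, and without CML 5, which held most Cebpe counts of its group, the log2 fold change of Cebpe was 6.80.

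Of 11 genes for heme synthesis and for the folding of myeloperoxidase, 3 rose and 0 fell. Alas1, the first enzyme of heme synthesis outside erythroid cells, rose from 28.9 ± 6.96 to 241 ± 121 CPM (SD, n = 4 each, log2 fold change 3.06, SE 0.45, edgeR adjusted p = 0.0032). Calr, a chaperone that binds the Mpo precursor, rose by 1.30 (SE 0.26, edgeR adjusted p = 0.013) and the disulfide isomerase gene Pdia3 by 1.17 (SE 0.23, edgeR adjusted p = 0.012). Calr missed the threshold without CML 1, 2 or 3.

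The machinery that sorts granule cargo, including genes mutated in congenital neutropenias, had 4 of 27 tested genes higher and 1 lower in CML-TKI, with a median log2 fold change of -0.04. Ap3s1, a subunit of the AP-3 adaptor, rose from 14.9 ± 0.702 to 146 ± 79.7 CPM (SD, n = 4 each, log2 fold change 3.29, SE 0.41, edgeR adjusted p = 0.0015). Lyst, which is mutated in Chediak-Higashi syndrome with its giant granules, rose by 2.59 (SE 0.50, edgeR adjusted p = 0.011), the proton pump subunit gene Tcirg1 by 1.74 (SE 0.30, edgeR adjusted p = 0.0064) and the sorting receptor gene Sort1 by 1.11 (SE 0.24, edgeR adjusted p = 0.017). The SNARE gene Vamp8 fell by 1.49 (SE 0.29, edgeR adjusted p = 0.012). Without CML-TKI 1 or without CML-TKI 4, 8 genes of this list were called, and Sort1 was not called without CML 1, 2 or 3.

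Although Srgn itself overlapped between groups, 4 of 21 tested genes that build or sulfate its sugar chains rose and 1 fell. The sulfotransferase gene Chst13 had 9, 0, 4 and 11 counts in CML 1, 2, 3 and 5 and 32, 56, 33 and 152 counts in CML-TKI 1 to 4 (log2 fold change 4.72, SE 0.90, edgeR adjusted p = 0.011). Papss2, which makes the sulfate donor, rose from 2.90 ± 2.09 to 57.2 ± 23.5 CPM (SD, n = 4 each, 4.32, SE 0.66, edgeR adjusted p = 0.0036). The chain-initiating xylosyltransferase gene Xylt1 rose by 1.7 (SE 0.35, edgeR adjusted p = 0.015) and the chondroitin synthase gene Chsy1 by 1.18 (SE 0.23, edgeR adjusted p = 0.012). Csgalnact1, which adds the first chondroitin sugar, fell from 85.8 ± 25.4 to 7.37 ± 7.48 CPM (-3.42, SE 0.67, edgeR adjusted p = 0.012). The list had 3 calls without CML 1 or CML 2 and 8 without CML-TKI 1, where the value of Csgalnact1 was -4.26. Chsy1 missed the threshold without CML 1, 2 or 3, and Xylt1 without CML 1, 2 or 5.

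Elane and Prtn3 lie in a cluster of serine protease genes, so the genes within 100 kb of Elane were examined. RefSeq places 21 genes there, and 10 of them other than Prtn3 were tested, of which 4 rose and 0 fell (median log2 fold change 0.03). The serine protease gene Prss57 was the outermost of these, at -99.2 kb from Elane between midpoints. Palm, whose annotated span overlaps that of Prss57, rose by 2.67 (SE 0.29, edgeR adjusted p = 0.00087), and whether reads were counted by strand is not given in the sources used here, so reads of this pair may be mixed. Arid3a rose by 1.84 (SE 0.40, edgeR adjusted p = 0.019) and Plppr3, which ends beside Prtn3, by 0.88 (SE 0.24, edgeR adjusted p = 0.049). Both calls were lost without any one CML library or CML-TKI 2, and that of Plppr3 also without CML-TKI 3 or 4 and with either other edgeR scaling. Between and around these, Ptbp1 (-0.09, SE 0.21), Med16 (-0.63, SE 0.25) and R3hdm4 (-1.0, SE 0.38) did not pass the threshold (edgeR adjusted p = 0.83, 0.14 and 0.13). Near Ctsg, RefSeq places 16 genes within 100 kb, 2 of them were in the table and the 1 that could be tested, the transcribed pseudogene Gm5801, was not called (0.67, SE 0.33, edgeR adjusted p = 0.24).

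**Figure D4:**
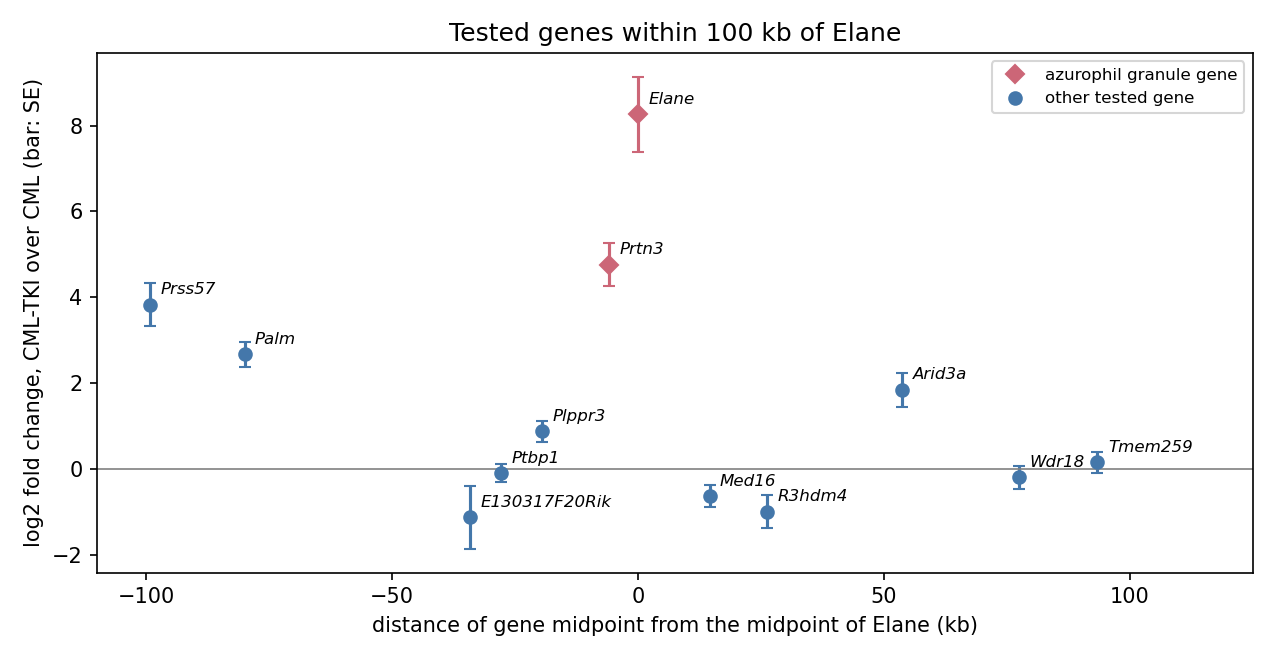
Log2 fold change of CML-TKI over CML with its SE for the tested genes within 100 kb of Elane, against the distance between gene midpoints in kb. Elane (8.26) and Prtn3 (4.76) are drawn as red diamonds, and Med16 (-0.63) at 14.6 kb and Plppr3 (0.88, called higher) at -19.5 kb lie below both.

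Markers of myeloid cells moved with the azurophil genes, and their part in the difference was not tested. The sums given here are over all listed genes in the table, also those too low to test. Of 9 tested markers of granulocyte-monocyte progenitors 8 rose and 0 fell, and the list summed to 230 to 310 CPM in CML and 498 to 2110 CPM in CML-TKI. The remaining marker, Cd34, which stem cells also express, carried most of the CML sum and had 176 to 227 CPM in CML and 69.0 to 172 CPM in CML-TKI (-0.95, SE 0.29, edgeR adjusted p = 0.072). Without Cd34 the sums were 46.8 to 82.8 CPM and 418 to 2017 CPM. All 9 monocyte markers rose, from sums of 28.3 to 37.3 CPM to sums of 872 to 4562 CPM. Their median log2 fold change was 6.62, against 4.76 for the 7 azurophil genes. The largest were those of Ccr2 (8.04, SE 0.65) and F13a1 (8.02, SE 0.70), so rises of this size were not particular to the azurophil genes. Of 12 tested genes of later neutrophil granules 9 rose and 0 fell, from 188 to 303 CPM to 270 to 3239 CPM, and CML-TKI 1, which had 221 CPM of Elane, lay within the CML range for this sum. Ly6g, a marker of mature neutrophils, had between 3 and 29 counts in all 8 libraries.

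Other lineages did not follow one pattern. All 4 tested eosinophil markers rose, from sums of 4.25 to 37.1 CPM to 48.2 to 2660 CPM. Of 3 tested mast cell and basophil markers, Cpa3 and Hdc rose and Gata2, which stem cells also express, fell. The sums with Gata2 were 257 to 363 CPM in CML and 110 to 1300 CPM in CML-TKI, and Gata2 made up nearly all of the CML sums. Without it they were 4.49 to 6.76 CPM in CML and 43.8 to 1233 CPM in CML-TKI. Cpa3 was not called without any one CML library, CML-TKI 2 or CML-TKI 4, and its log2 fold change of 3.61 was 2.14 without CML-TKI 4. Of 3 tested macrophage markers 1 rose, and the sums were 18.1 to 67.4 CPM and 46.0 to 189 CPM. Megakaryocyte markers fell in 3 of 7 tested genes, from 1262 to 1568 CPM to 50.5 to 618 CPM. The lowest edgeR adjusted p of 7 tested erythroid markers was 0.050 (Hba-a1), and it was 0.86 for Cd79b, the 1 tested B cell marker, and 0.70 (Cd4) for 2 tested T and NK cell markers. CML-TKI 3 held 35838 CPM of erythroid genes and 287 CPM of B cell genes, against at most 258 and 23.4 CPM in the CML libraries. T and NK cell genes summed to 4.83 to 10.8 CPM in CML and to 0.620 to 99.7 CPM in CML-TKI, with the most in CML-TKI 3. Cd3e, Cd3g and Cd8a had 0 counts in every CML library. In CML-TKI 1 to 4, Cd3e had 7, 1, 2 and 25 counts and Cd8a had 2, 1, 42 and 10. Cd3g had 0, 0, 0 and 12 counts there.

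Of the 5 genes behind the sorting gate, 1 rose, 2 fell and 2 did not pass the threshold. Cd48 rose from 5.05 ± 1.24 to 103 ± 56.9 CPM (SD, n = 4 each, log2 fold change 4.35, SE 0.47, edgeR adjusted p = 0.00087). Slamf1, which encodes CD150, fell by 3.42 (SE 0.61, edgeR adjusted p = 0.0080) and Kit by 1.92 (SE 0.21, edgeR adjusted p = 0.00087). Ly6a, which encodes Sca1, had 35.9 ± 2.72 CPM in CML and 16.0 ± 19.1 CPM in CML-TKI (-1.12, SE 0.73, edgeR adjusted p = 0.37) and was called lower without CML-TKI 1 (-2.52, edgeR adjusted p = 0.012, against a range of 0.012 to 0.65 over its alternatives). Flt3 had 16.5 ± 0.786 and 25.8 ± 25.3 CPM (0.65, SE 0.58, edgeR adjusted p = 0.52). Without CML-TKI 4, where Flt3 had 243 counts, its difference was -0.34.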

How the data were processed

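Bulk RNA-seq of sorted mouse LSCs was analysed in 4 CML and 4 CML-TKI libraries. The authors prepared Nextera XT libraries from total RNA, aligned reads with STAR 2.6.1d to mm10 then counted them on RefSeq transcripts with Partek 8.0, per the paper and the submitters' processing notes, and deposited estimated counts per gene, not normalized. Whether counting used strand is not given in the sources used here.

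Values were rounded to whole counts. edgeR 4.0.16 (R 4.3.3) was used with TMM factors, filterByExpr (minimum count 10, minimum total count 15), a robust quasi-likelihood fit without covariates and Benjamini-Hochberg adjustment over 11937 genes, with a threshold of 0.05. The SE was obtained by dividing the log2 fold change by √F. CPM is TMM-scaled, and log2 CPM used a prior count of 2. The script was tested on simulated counts. Levels per kb used the union of GENCODE exons, which may differ from the transcripts the authors counted on. Promoters and neighbours came from RefSeq (GRCm38.p6, the assembly of mm10), where 6 members had an entry. Total counts per library ranged from 1041552 to 8620101, and since no molecular identifiers were used, counts are not independent molecules.

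The members and gene lists were chosen with earlier results of these data known, so no member carries a p-value. Named list genes were the called genes with the largest changes, up to 5 in each direction per list, and a fixed set of relatives, transcription factors and gate genes. The neighbours, the 8 genes most like Elane and the markers named by a count of 0 or by a limit were set by position, by rank or after their values were seen. DESeq2 1.42.0, limma 3.58.1 (voom with quality weights), other scalings, no filter, thinning, the replicate number as a block, CML 1 to 3 summed and each library left out were tried as alternatives. Other experiments of the series were not used here.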

Additional observations from a re-analysis of the deposited data

Results flagged for a closer look

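In each group of 4 libraries, a library was singled out where its gap to the nearest other library, divided by the group's range, was above Dixon's 95% critical value. This happened for 21 of 152 measures, while chance gives about 7.6. Several of these measures share genes.

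CML-TKI 1 was the low library for Elane (221 CPM), Serpinb1a (42.9 CPM) and Prss57 (23.0 CPM), and the high library for the stem cell markers (427 CPM), for the serglycin chain genes (1920 CPM) and for Serpina3f (2.09 CPM). CML-TKI 4 was the high library for the ratio of summed protease CPM to Ctsc (23.0) and for the summed mast cell and basophil markers (1300 CPM). CML-TKI 3 was the high library for the erythroid markers (35838 CPM) and the B cell markers (287 CPM), and CML-TKI 2 the low library for Gata2 (21.7 CPM).

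In the CML group most of these libraries were CML 5. It was high for Srgn (134 CPM), Cebpe (2.89 CPM), Cebpa (12.9 CPM), Gata2 (359 CPM), Vamp8 (196 CPM) and the summed mast cell and basophil markers (363 CPM, of which Gata2 was 359 CPM), and low for Lyst (59.5 CPM), for the summed transcription factors (1624 CPM) and for the summed sorting and neutropenia genes (1960 CPM). CML 3 was high for Xylt1 (22.2 CPM).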

How the results depend on the processing

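The member median of 4.76 stayed between 4.51 and 5.05 in 14 alternatives, and the number of members higher without overlap was 5 or, without CML-TKI 1, 6 in 13 alternatives. No member changed the sign of its log2 fold change. The count of all called genes (1220) was 122 with CML 1 to 3 summed, 223 with the replicate block, 2157 with DESeq2 and 2544 with limma-voom, and 505 to 2504 with 1 library left out (lowest without CML 1, highest without CML-TKI 1). Scaling by total counts without Rn45s shifted the median of all genes to -0.14 and gave 1196 calls, of which 50.4% were higher against 61.6% in TMM, and the share was 53.5% with DESeq2, 48.9% with limma-voom, 76.2% with the replicate block, 83.6% with CML 1 to 3 summed and 46.8% (without CML-TKI 1) to 72.1% (without CML 1) with 1 library left out.

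With CML 1 to 3 summed, which leaves fewer samples, 0 genes were called for granule content, protease inhibitors, paralogs, sorting, serglycin chains and Mpo maturation and 1 transcription factor (Irf8). At this setting the edgeR test was run with 2 CML libraries. Same-numbered libraries did not deviate together (r = -0.04, 0.097 and 0.093), so the numbers were not taken as pairs. CML 5 and CML-TKI 4 share their number with no other library. The contrast of the replicate block therefore rested on libraries 1 to 3 of each group. With this block, calls were 4 for granule content, 0 for inhibitors, paralogs and Mpo maturation, 5 for transcription factors, 2 for sorting and 1 for serglycin chains, and Flt3 turned from 0.65 to -0.38. DESeq2 and limma-voom each gave 10 sorting calls, limma-voom 8 serglycin calls, thinning to the smallest total 8 sorting calls and no filter 3 paralog calls. With 1 library left out, calls ranged from 6 to 12 for granule content, 2 to 7 for inhibitors, 1 to 3 for paralogs, 7 to 11 for transcription factors, 4 to 8 for sorting, 3 to 8 for serglycin chains and 2 to 4 for Mpo maturation, and Flt3 from -0.34 (without CML-TKI 4) to 0.96 (without CML-TKI 2). Of 40 called list, gate and neighbouring genes tried, 35 lost their call in at least 1 alternative, 35 of them with CML 1 to 3 summed, and 0 changed sign. Apart from counts moved by fewer samples or genes, the cause was not tested. Depth limits Elane and Ctsg in CML, where counts fell to 4 and 1, and every low gene in CML-TKI 3.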
